A study of Mus musculus with 6 samples.

Results

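The 10 genes described here encode serum response factor (Srf), its coactivators (Mrtfa, Mrtfb, Myocd), its ternary complex factor Elk1, the MEF2 factors Mef2a, Mef2c and Mef2d, and the LIM-only proteins Fhl1 and Fhl2. They were taken by symbol, through the mm10 GENCODE annotation, from a table of 21785 genes, and all 10 were present. Total RNA was sequenced from cultures of mouse pulmonary arterial smooth muscle cells (PASMCs), which contract to narrow the arteries of the lung. The 3 stimulated samples received bone morphogenetic protein 9 (BMP9, 1 ng/mL) together with BMP10 (5 ng/mL), ligands of the TGF-beta family, for 6 h, and the 3 control samples received neither ligand. Cells of both groups were from C57BL/6 mice, in cultures that had grown out of lung tissue around iron particles trapped in the vessels, and all had been kept without supplement for 48 h beforehand. No sorting step is described in the labels, so the cultures can hold other lung cells.

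SRF is a MADS-box transcription factor that binds a short AT-rich element, the CArG box, in front of genes for actin, contractile and adhesion proteins and of growth-factor-induced genes. It has little activity on its own and is driven by competing partners. The myocardin-related factors MRTF-A and MRTF-B are held in the cytoplasm by monomeric actin and enter the nucleus when actin polymerises, myocardin is a constitutively nuclear relative found in smooth and cardiac muscle, and ternary complex factors such as ELK1 are activated by MAP kinase and compete with them for SRF. MEF2 proteins are MADS-box relatives of SRF that are restrained by class IIa histone deacetylases, and FHL proteins are LIM-only cofactors, of which FHL2 is itself a known SRF target and binds SRF.

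The promoter sequences of the genes that the results turn on are shown first, because Srf and Fhl2 are themselves known SRF target genes. Promoter windows of 300 bases, from 250 bases before to 50 after a transcript start, were available in RefSeq (GRCm38.p6) for 9 of the 10 genes, 16 windows in all. They were searched on both strands for the CArG box, the MEF2 box, the ETS-type element CCGGAAG and the GC-rich element GGCGCC. Myocd had no window, so its promoter was not searched. The capitals in the next sequences mark CArG boxes. The Srf window (chr17:46556113-46556412, minus strand) held 2, the Fhl2 windows (upstream start, chr1:43196712-43197011, and downstream start, chr1:43163912-43164211, both minus strand) held 1 each, and a Fhl1 window (chrX:56779433-56779732, plus strand) held 1.
Srf promoter: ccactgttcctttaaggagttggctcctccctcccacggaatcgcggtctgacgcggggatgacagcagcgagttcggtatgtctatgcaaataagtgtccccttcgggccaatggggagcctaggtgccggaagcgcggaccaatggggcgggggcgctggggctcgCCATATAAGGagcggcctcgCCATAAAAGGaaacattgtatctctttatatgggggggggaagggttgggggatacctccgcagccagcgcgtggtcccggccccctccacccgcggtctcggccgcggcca
Fhl2 upstream promoter: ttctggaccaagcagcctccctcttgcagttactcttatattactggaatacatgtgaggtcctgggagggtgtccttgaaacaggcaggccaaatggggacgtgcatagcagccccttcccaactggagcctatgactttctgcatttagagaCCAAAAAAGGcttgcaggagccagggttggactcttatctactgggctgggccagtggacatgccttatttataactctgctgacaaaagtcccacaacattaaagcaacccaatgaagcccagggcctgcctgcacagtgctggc
Fhl2 downstream promoter: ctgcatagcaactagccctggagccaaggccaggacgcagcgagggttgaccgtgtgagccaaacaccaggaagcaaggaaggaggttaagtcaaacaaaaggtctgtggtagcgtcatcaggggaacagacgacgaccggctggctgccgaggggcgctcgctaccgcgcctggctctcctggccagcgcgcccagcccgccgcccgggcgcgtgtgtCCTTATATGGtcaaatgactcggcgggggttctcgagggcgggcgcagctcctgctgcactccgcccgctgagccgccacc
Fhl1 promoter: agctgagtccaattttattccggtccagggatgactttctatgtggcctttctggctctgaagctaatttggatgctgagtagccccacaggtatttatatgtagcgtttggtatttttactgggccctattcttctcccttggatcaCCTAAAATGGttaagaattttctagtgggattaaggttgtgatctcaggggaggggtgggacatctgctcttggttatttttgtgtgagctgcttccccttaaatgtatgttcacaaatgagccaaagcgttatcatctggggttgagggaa
The CArG box occurred in 1.63% of all 32851 windows, and 6 windows (0.0183%), that of Srf among them, held at least 2. In the Srf window the boxes began 82 and 62 bases before the start, and a CCGGAAG element, found in 8.86% of windows, began 122 bases before it. The boxes of Fhl2 began 96 bases before its upstream start and 31 bases before its downstream start. These are letter matches and do not show binding.

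A MEF2 box, found in 3.19% of windows, was present in windows of Fhl2, Mrtfb and Mef2a. It began 31 bases before the upstream start of Fhl2 without touching its CArG box, and 165 bases before a start of Mrtfb. In Mef2a (chr7:67372809-67373108, minus strand) it lay across the start, and the capitals mark it here because Mef2a is a member of the family that binds this element.
Mef2a promoter: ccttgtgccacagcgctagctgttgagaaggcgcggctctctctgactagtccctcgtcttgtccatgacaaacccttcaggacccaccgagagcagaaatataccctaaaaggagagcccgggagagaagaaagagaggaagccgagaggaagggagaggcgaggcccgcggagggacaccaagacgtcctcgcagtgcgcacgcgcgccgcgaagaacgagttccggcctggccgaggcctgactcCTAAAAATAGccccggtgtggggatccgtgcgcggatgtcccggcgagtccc
GGCGCC, found in 11.9% of windows, was in none of the 16.

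Levels are normalized read counts from the deposited table, with library totals of 27295973 to 31903795 that stand for an estimated 23.3 to 54.4 M reads. Means are given ± SD over the 3 samples of a group. Each change is a difference of log2(value + 1), stimulated minus control, ± SE, and its limma p-value was Benjamini-Hochberg adjusted over all 21743 genes tested. Over all of these genes 13.4% passed at an adjusted p under 0.05, 8.61% as rises and 4.75% as falls, and the median log2 change was -0.03. The share of changed genes that rose was 64.5% with the values as deposited, 51.2% with upper-quartile scaling and 33.4% with equal library totals, where the median of all genes was -0.11 and -0.20. Nothing in the labels tells separate animals or cultures from repeats of one, so the p-values stand for the spread among these 6 samples, which may be technical.

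The smooth muscle label was checked against marker lists. All 8 smooth muscle markers were present, with a summed level of 86056 to 184735 in stimulated and 35682 to 55323 in control libraries. Most of this sum was Acta2, at 69094 to 153164 in stimulated and 23470 to 37627 in control libraries. Of the 8, 4 rose (Acta2, Cnn1, Tagln and Lmod1), against 8.61% of all genes. All 4 are also on the list of SRF-MRTF target genes described below. Actg2, Smtn, Myh11 and Des did not pass, with log2 changes of 0.99, 0.57, 0.41 and -0.43 (limma adjusted p = 0.111, 0.16, 0.374 and 0.302). Exons on the opposite strand cover 67.9% of Tagln. Markers of other cell types were also present. Those of pericytes, 7 in all, summed to 32740 to 42206 in stimulated and 22217 to 31987 in control libraries. The summed level of 9 macrophage markers was 145036 to 217629 in stimulated and 97704 to 168658 in control libraries, that of 7 fibroblast markers 136984 to 274659 in stimulated and 148051 to 225648 in control libraries, and that of 12 endothelial markers 9721 to 43726 in stimulated and 12354 to 46574 in control libraries. Lyz2 alone was at 123461 to 179899 in stimulated and 81014 to 138253 in control libraries. Col1a1 alone was at 110532 to 246018 in stimulated and 120701 to 193253 in control libraries. These 2 genes made up most of the macrophage and fibroblast sums, so the sums cannot be read as shares of cells. Cardiomyocyte markers, of interest because myocardin and MEF2C are heart factors, summed to only 137 to 212 in stimulated and 136 to 431 in control libraries, and Nkx2-5 and Nppa were not analysed here. Since these are bulk samples, more cells of a type cannot be told apart from more RNA per cell.

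Of the 10 regulators, 4 rose (Srf, Mrtfa, Mef2a and Fhl2), none fell and 6 did not pass, against 8.61% of all genes that rose. At an unadjusted limma p under 0.05 there were 6 higher and none lower, against 15.5% higher and 13.2% lower of all genes. The groups did not overlap for 6 of the 10, all higher in stimulated samples, against 17.8% of all genes (33.2% in either direction). Both counts are for the values as deposited, in which every stimulated library total lay above every control total. They were not repeated with other scalings. The median log2 change of the 10 was 0.36. The replicate number was also used as a block in limma, because same-numbered libraries deviated together, though weakly for replicate 3 (correlation 0.218). With this block 5 rose, against 14.9% of all genes (26.8% in either direction), the addition being Mef2d. With genes of a mean under 10 left out, and no block, the same 5 rose, against 2069 of 16695 genes. The largest changes were those of Fhl2 and Srf, and only the Fhl2 call was kept in each of 17 alternative settings. The plot of levels by library shows all 60 values.

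**Figure D1:**
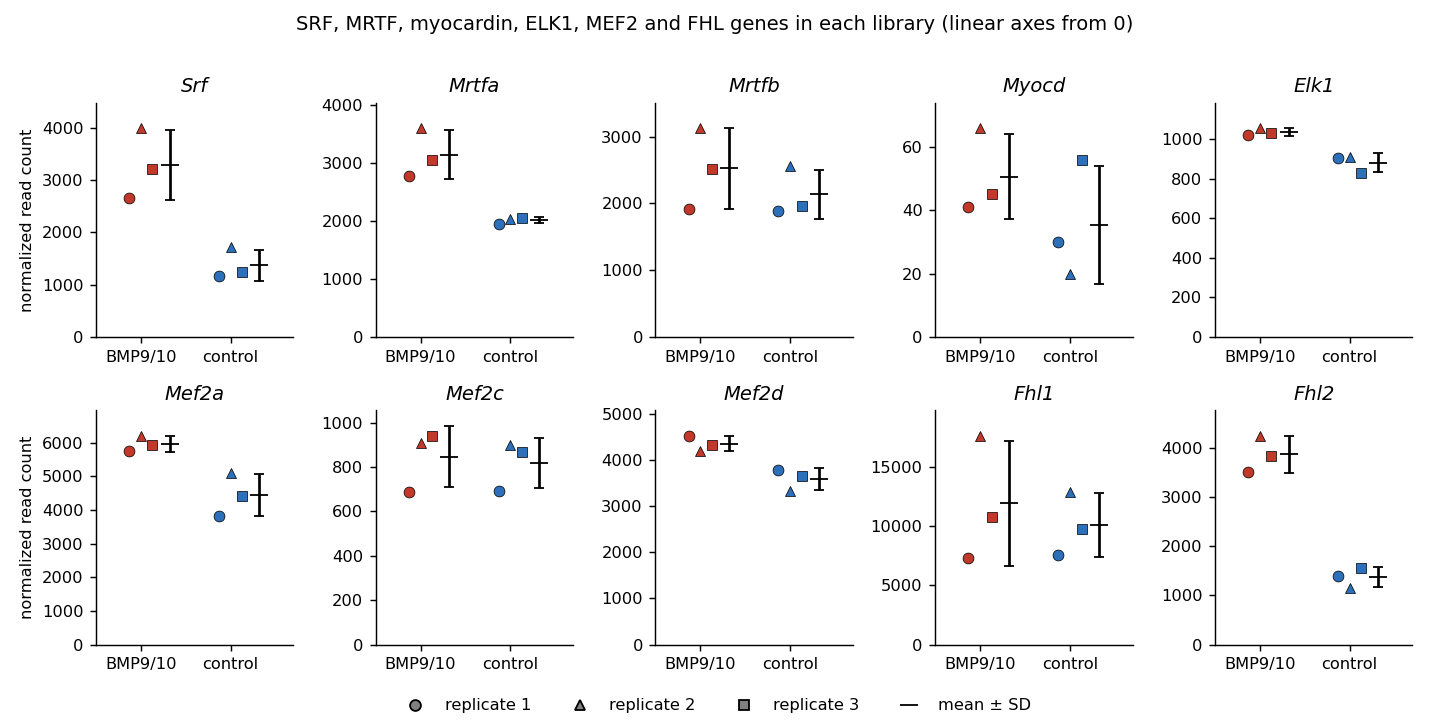
Normalized read count (linear axes from 0) of the 10 genes in the 3 BMP9/10 libraries (red) and the 3 control libraries (blue); symbols give the replicate number, and the dash and bar give mean ± SD. All stimulated libraries lie above all controls for Srf, Mrtfa, Elk1, Mef2a, Mef2d and Fhl2, and the groups overlap for Mrtfb, Myocd, Mef2c and Fhl1.

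Srf (ENSMUSG00000015605, chromosome 17, 46548329 to 46556175, minus strand) had 2665, 3997 and 3219 normalized counts in stimulated replicates 1, 2 and 3, against 1160, 1714 and 1235 in control replicates 1, 2 and 3. Every stimulated library lay above every control, and replicate 2 was the highest of both groups. The means were 3294 ± 669 in stimulated and 1370 ± 301 in control samples. Srf rose by 1.27 ± 0.20 (limma adjusted p = 0.00848), a change at percentile 96.8 of all genes tested. Within replicate numbers the change was 1.20, 1.22 and 1.38, a narrower range than that of the levels. Without stimulated replicate 3 the change was 1.27 and was not called (limma adjusted p = 0.0505).

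Genes of a like pattern were sought by the root mean square difference between log2 profiles over the 6 libraries, each centred on its own mean, among protein-coding genes with a mean of at least 100. The nearest to Srf were Adamts10 (0.05), a secreted metalloprotease of the matrix, Med14 (0.06), a subunit of the Mediator complex, Hip1 (0.06), an actin- and clathrin-binding adaptor, Slc25a25 (0.08), a mitochondrial carrier, and Filip1l (0.09). Med14, for example, had 2669, 4247 and 3607 normalized counts in stimulated replicates 1 to 3 and 1237, 1705 and 1331 in controls. Their log2 changes were between 1.20 (Hip1) and 1.29 (Adamts10). Of the 5, Filip1l is also on the list of SRF-MRTF target genes below. All 5 share with Srf the same libraries and the same replicate 2 maximum, so the likeness is a description.

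Among the coactivators, Mrtfa (ENSMUSG00000042292, chromosome 15, 81012281 to 81190757, minus strand), which encodes MRTF-A, had 2771, 3601 and 3043 normalized counts in stimulated replicates 1 to 3, against 1952, 2035 and 2051 in controls. The controls lay close together and all stimulated libraries lay above them, replicate 2 the farthest. Mrtfa rose by 0.63 ± 0.11 (limma adjusted p = 0.0124), with changes of 0.51, 0.82 and 0.57 within replicate numbers. Leaving out stimulated replicate 3 (limma adjusted p = 0.0606), control replicate 1 (0.0588) or control replicate 3 (0.0551) ended the call at log2 changes of 0.61 to 0.65, and so did a fit without the intensity trend (0.0516).

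Mrtfb (ENSMUSG00000009569, chromosome 16, 13256481 to 13417529, plus strand), which encodes the closely related MRTF-B, had 1920, 3130 and 2521 normalized counts in stimulated and 1886, 2554 and 1965 in control replicates 1 to 3. The groups overlapped, and replicate 2 was high in both. Its log2 change was 0.23 ± 0.20 with a 95% interval of -0.24 to 0.69 (limma adjusted p = 0.508; 0.0903 with the replicate block). Because a ratio within a library does not depend on how the library is scaled, the 2 coactivators were compared as Mrtfa over Mrtfb per exonic kilobase. That ratio was 2.12, 1.69 and 1.77 in stimulated replicates 1 to 3 and 1.52, 1.17 and 1.53 in controls. The groups did not overlap, and the mean log2 ratio was higher by 0.41 in stimulated samples (exact two-sided permutation p = 0.1, adjusted p = 0.133 over 8 ratios). With 3 against 3 samples 0.1 is the smallest p this test can give. Srf over Mrtfa was 2.03, 2.35 and 2.24 in stimulated replicates 1 to 3 and 1.26, 1.78 and 1.27 in controls, also without overlap (log2 difference 0.64, exact two-sided permutation p = 0.1).

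Myocd (ENSMUSG00000020542, chromosome 11, 65176561 to 65269989, minus strand), the gene of myocardin, was the lowest of the 10, with 41, 66 and 45 normalized counts in stimulated replicates 1 to 3 and 30, 20 and 56 in controls. The groups overlapped, the highest control lying above all but 1 stimulated library, and the change within replicate numbers had both signs (0.44, 1.67 and -0.31). Its log2 change was 0.60 ± 0.41 with a 95% interval of -0.36 to 1.56 (limma adjusted p = 0.386). These levels rest on an estimated 31, 58 and 77 reads in stimulated and 28, 20 and 54 reads in control libraries, and the 95% Poisson interval for counting error alone runs from 50.1 to 85.3 at the highest library (stimulated replicate 2) and from 12.1 to 30.6 at the lowest (control replicate 2). The interval of the change covers both no change and one of the size seen for Srf. Per exonic kilobase, Myocd made up 0.95%, 1.08% and 0.89% of the summed level of the 3 coactivator genes in stimulated replicates 1 to 3 and 0.87%, 0.50% and 1.55% in controls, so nearly all coactivator transcript counted was that of the MRTFs.

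**Figure D2:**
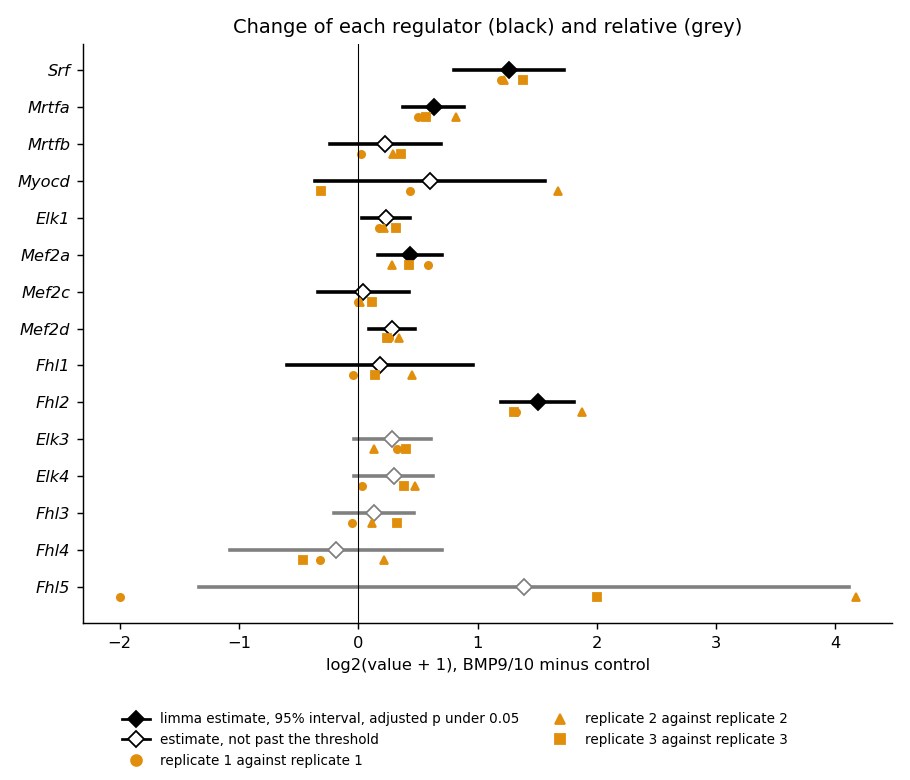
Log2(value + 1) change, BMP9/10 minus control, of the 10 regulators (black) and 5 relatives (grey). Diamonds and lines give the limma estimate with its 95% interval, filled where the adjusted p was under 0.05, and orange symbols give the change within each replicate number. The filled diamonds belong to Srf, Mrtfa, Mef2a and Fhl2, and the intervals of Fhl5 and Myocd are the widest drawn.

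Elk1 (ENSMUSG00000009406, chromosome X, 20933395 to 20950608, minus strand), the gene of the ternary complex factor, had 1022, 1057 and 1030 normalized counts in stimulated replicates 1 to 3 and 906, 911 and 827 in controls. The groups did not overlap, and the difference was small. Its log2 change was 0.23 ± 0.09 (limma adjusted p = 0.122, and 0.0579 with the replicate block). Over the 17 alternatives the log2 change of Elk1 was 0.062 to 0.259 and its limma adjusted p 0.0579 to 0.675. The relatives Elk3 and Elk4, which encode the other ternary complex factors, had log2 changes of 0.29 ± 0.14 (limma adjusted p = 0.225) and 0.30 ± 0.14 (limma adjusted p = 0.215). Elk3 passed in 1 of the 17 alternatives, the replicate block (limma adjusted p = 0.0294). Over all 17 its log2 change was 0.114 to 0.427 and its limma adjusted p at most 0.63. Per exonic kilobase, Elk3 was the most abundant of the 3, with 71.5% ± 0.102 of their summed level in stimulated and 71.1% ± 3.01 in control samples, and Elk1 held 15.8% ± 1.21 in stimulated and 16.4% ± 1.86 in control samples. The ratio of Srf to Elk1 was 4.85, 7.03 and 5.81 in stimulated replicates 1 to 3 and 2.38, 3.50 and 2.78 in controls, without overlap (log2 difference 1.03, exact two-sided permutation p = 0.1, the smallest possible).

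Among the MEF2 genes, Mef2a (ENSMUSG00000030557, chromosome 7, 67231163 to 67372858, minus strand) had 5744, 6209 and 5935 normalized counts in stimulated replicates 1 to 3 and 3822, 5088 and 4425 in controls. The stimulated libraries lay close together and above all controls, which spread more widely. Mef2a rose by 0.43 ± 0.11 (limma adjusted p = 0.0486), close to the threshold. The call was lost by limma with equal library totals (0.26, adjusted p = 0.185), with upper-quartile scaling (0.35, 0.0681), with a pseudocount of 0.1 (0.0505), without the intensity trend (0.124), with the block and equal library totals together (0.0531), without both replicate 2 libraries (0.51, 0.0511) and without any single library other than control replicate 2 (0.0864 to 0.151, at log2 changes of 0.33 to 0.46). With the replicate block it passed (limma adjusted p = 0.00727).

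Mef2d (ENSMUSG00000001419, chromosome 3, 88142372 to 88172086, plus strand) had 4530, 4205 and 4335 normalized counts in stimulated replicates 1 to 3 and 3784, 3321 and 3658 in controls. The groups did not overlap, and replicate 2 was the lowest of both, unlike for Srf and Mef2a. Its log2 change was 0.28 ± 0.08 (limma adjusted p = 0.0647). It passed with the replicate block (limma adjusted p = 0.0163) and with genes of a mean under 10 left out (0.0463), 2 of the 17 alternatives. Over all 17 the log2 change of Mef2d was 0.108 to 0.321 and its limma adjusted p at most 0.39. Equal library totals, with or without the block, gave no call. The opposite-strand gene 1700113A16Rik has exons over 8.87% of its exonic bases, against at most 2.06% for the other regulators, and whether reads were counted by strand is not given in the sources used here.

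Mef2c (ENSMUSG00000005583, chromosome 13, 83504034 to 83667080, plus strand), the MEF2 gene best known from heart, endothelium and myeloid cells, had 688, 909 and 942 normalized counts in stimulated replicates 1 to 3 and 690, 900 and 868 in controls. The groups overlapped library by library, replicate 1 being the lowest in both. Its log2 change was 0.04 ± 0.16 with a 95% interval of -0.34 to 0.43 (limma adjusted p = 0.896), and its sign depended on the scaling (-0.13 with equal library totals). The interval leaves out a rise of the size of Srf.

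Within the MEF2 family Mef2a had the most normalized counts in every library, whereas per exonic kilobase of the union of exons, which is longer for Mef2a, Mef2d was highest. Per exonic kilobase Mef2d held 61.3% ± 2.08 of the summed level of the 3 genes in stimulated and 62.8% ± 4.82 in control samples, Mef2a held 34.2% ± 1.47 in stimulated and 31.7% ± 4.20 in control samples, and Mef2c 4.53% ± 0.75 in stimulated and 5.46% ± 0.678 in control samples. Mef2a over Mef2c was 8.94, 7.31 and 6.74 in stimulated replicates 1 to 3 and 5.93, 6.05 and 5.46 in controls, without overlap (log2 difference 0.39, exact two-sided permutation p = 0.1, the smallest possible). The ratios of Mef2d to Mef2c (exact permutation p = 0.4) and of Mef2a to Mef2d (exact permutation p = 0.5) overlapped between groups. Srf over Mef2a was 2.35, 3.27 and 2.75 in stimulated and 1.54, 1.71 and 1.42 in control replicates 1 to 3, again without overlap (log2 difference 0.83, exact permutation p = 0.1).

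Fhl2 (ENSMUSG00000008136, chromosome 1, 43123074 to 43196984, minus strand), which encodes a LIM-only cofactor of SRF, had 3511, 4248 and 3837 normalized counts in stimulated replicates 1 to 3 and 1402, 1153 and 1551 in controls. The stimulated libraries all lay far above the controls, and replicate 2 was the highest stimulated and the lowest control library. Fhl2 rose by 1.50 ± 0.13 (limma adjusted p = 0.00122), a change at percentile 98.0 of all genes tested, with 1.32, 1.88 and 1.31 within replicate numbers. Over the 17 alternatives its log2 change was at least 1.31 and its limma adjusted p at most 0.0151.

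Fhl1 (ENSMUSG00000023092, chromosome X, 56731787 to 56793346, plus strand), its paralog of striated and smooth muscle, had 7319, 17612 and 10743 normalized counts in stimulated replicates 1 to 3 and 7526, 12885 and 9740 in controls. The groups overlapped, and the order of the replicates was the same in both, replicate 1 the lowest and replicate 2 the highest. Its log2 change was 0.18 ± 0.33 with a 95% interval of -0.60 to 0.96 (limma adjusted p = 0.763; 0.217 with the replicate block). The ratio of Fhl2 to Fhl1 per exonic kilobase was 0.939, 0.472 and 0.699 in stimulated replicates 1 to 3 and 0.365, 0.175 and 0.312 in controls. The groups did not overlap (log2 difference 1.32, exact two-sided permutation p = 0.1, adjusted p = 0.133). Fhl2 made up 37.2% ± 7.08 of the summed level of Fhl1, Fhl2 and Fhl3 in stimulated and 19.4% ± 5.29 in control samples.

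The remaining FHL genes did not pass the test. Fhl3 had 631, 834 and 828 normalized counts in stimulated replicates 1 to 3 and 653, 768 and 659 in controls, a log2 change of 0.13 ± 0.14 (limma adjusted p = 0.593). Fhl4 was at 56 to 87 in stimulated and 48 to 116 in control libraries. Fhl5, a cofactor of CREM in testis, was at 0 to 17 in stimulated and 0 to 3 in control libraries. The log2 changes were -0.19 ± 0.38 for Fhl4 and 1.39 ± 1.15 for Fhl5, and neither passed (limma adjusted p = 0.791 and 0.485). Mef2b was not analysed here. Of the 5 relatives tested, none rose and none fell by limma, also at an unadjusted p under 0.05.

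**Figure D3:**
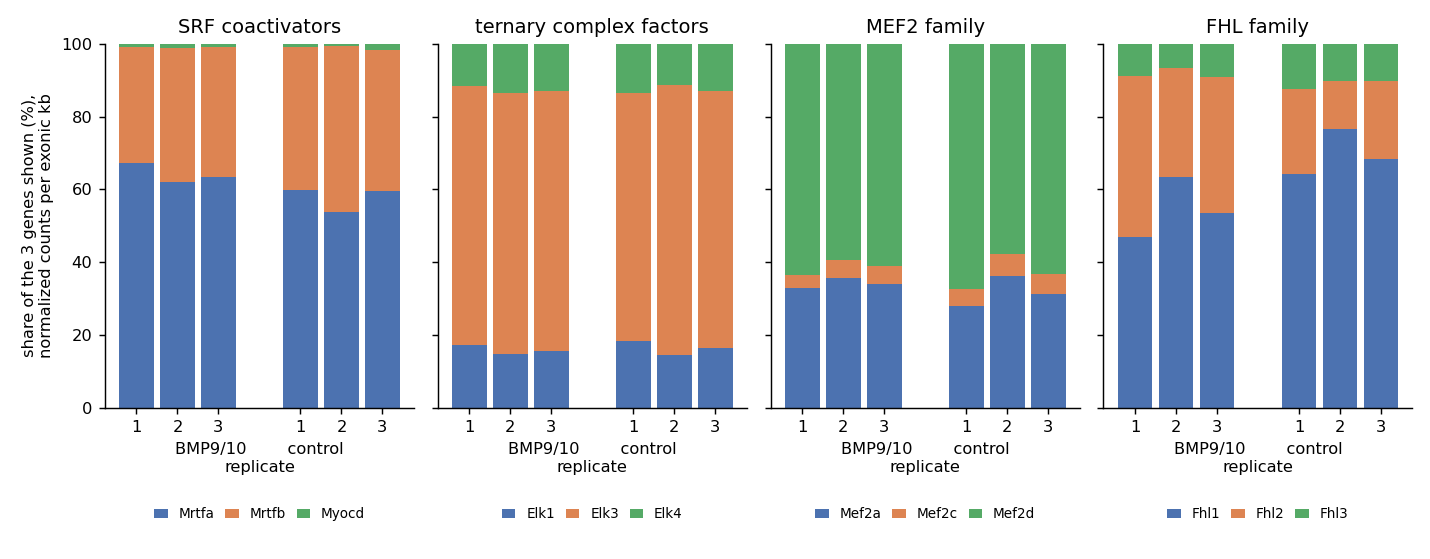
Share of each gene in the summed level of 3 family members (percent, normalized counts per exonic kilobase), one bar per library, BMP9/10 replicates on the left and controls on the right of each panel. Shares do not depend on library scaling. Fhl2 takes 30.0% to 44.1% of the FHL sum in stimulated and 13.4% to 23.4% in control libraries, while Myocd stays at 1.55% or less of the coactivator sum.

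Levels of the 10 genes were compared with each other per exonic kilobase, using the union of all annotated exons, so genes with long untranslated parts that these cells do not use appear lower than they are. In stimulated samples the order was Fhl1 (3202 ± 1411 normalized counts per kilobase), Fhl2 (2038 ± 195), Srf (1138 ± 231), Mef2d (728 ± 27.3), Mrtfa (513 ± 69.2), Mef2a (406 ± 15.9), Mrtfb (281 ± 67.3), Elk1 (193 ± 3.41), Mef2c (53.9 ± 8.79) and Myocd (7.89 ± 2.09). In that order only Fhl1 and Fhl2 had overlapping libraries. In control samples it was Fhl1 (2706 ± 725), Fhl2 (721 ± 106), Mef2d (599 ± 40), Srf (473 ± 104), Mrtfa (329 ± 8.69), Mef2a (303 ± 43.1), Mrtfb (237 ± 40.6), Elk1 (164 ± 8.76), Mef2c (52.1 ± 7.2) and Myocd (5.5 ± 2.89). There the libraries of Fhl2 and Mef2d, of Mef2d and Srf, of Mrtfa and Mef2a, and of Mef2a and Mrtfb overlapped, so their order is not settled. Srf thus stood above Mef2d in each stimulated library, whereas the 2 genes overlapped in controls.

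The regulators also differed between libraries of 1 group, along the replicate number. Replicate 2 held the highest level in both groups for Srf, Mrtfb, Elk1, Mef2a and Fhl1. The summed level of the 12 endothelial markers was 9721, 43726 and 16228 in stimulated replicates 1 to 3 and 12354, 46574 and 14438 in controls, and that of 10 epithelial and mesothelial markers was 3163, 35724 and 16166 in stimulated replicates 1 to 3 and 7277, 30191 and 7418 in controls. Of the epithelial and mesothelial sum, Sftpc alone gave 1114, 29469 and 12248 in stimulated replicates 1 to 3 and 826, 19538 and 4401 in controls. In each group replicate 2 was the highest library for all 12 endothelial markers and for 6 of 7 fibroblast markers. The order of Fhl1 over the replicates was that of the endothelial, epithelial, fibroblast and smooth muscle sums in both groups, and the part of these cells in its spread was not tested. Without both replicate 2 libraries Fhl2, Mrtfa and Srf were still called by limma.

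**Figure D4:**
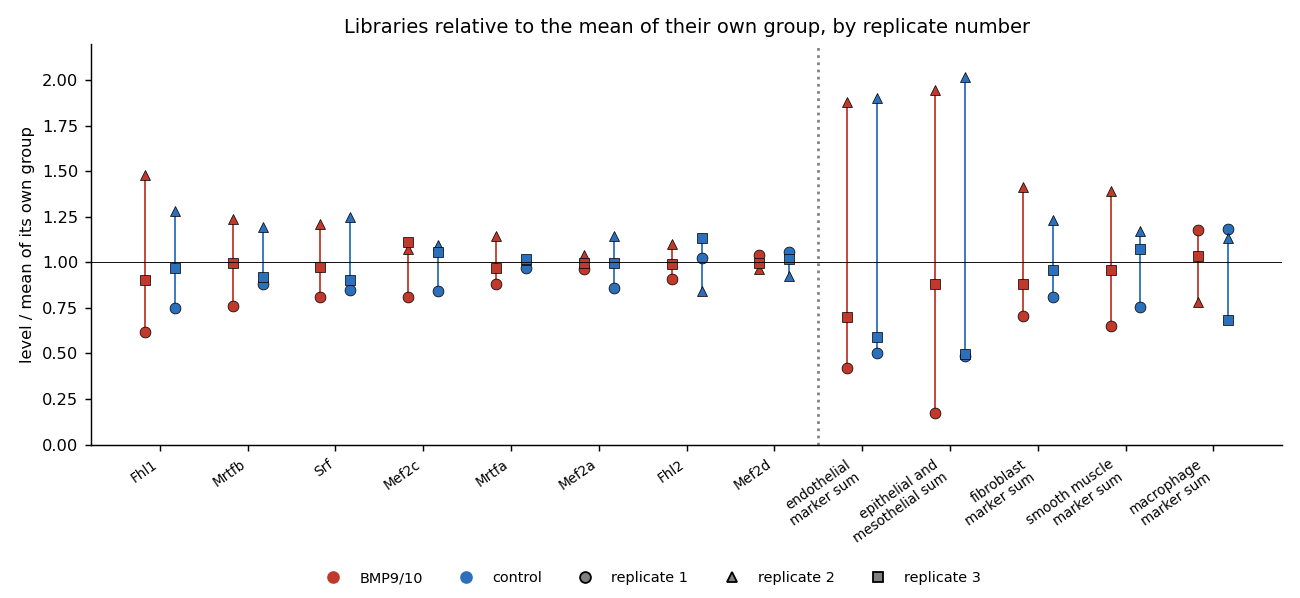
Level of 8 regulators (left of the dotted line) and summed level of 5 marker lists (right of it) in each library, divided by the mean of the library's own group, BMP9/10 in red and control in blue. Replicate 2 (triangles) is the highest library of both groups for Fhl1, Mrtfb, Srf and Mef2a and for the endothelial, epithelial, fibroblast and smooth muscle sums, and not for Mef2d or the macrophage sum.

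The downstream genes were described by list. All 42 genes listed as known targets of SRF with MRTF or myocardin, mostly of the cytoskeleton and the contractile apparatus, were tested. By limma 24 rose (8.61% of all genes did), none fell (4.75% of all genes did) and 18 did not pass. The median log2 change was 0.69 against -0.03 over all genes. At an unadjusted limma p under 0.05 there were 30 higher and none lower, against 15.5% and 13.2% of all genes. The smallest p-values were those of Ccn2, Itga5 and Ccn1; Ccn1 and Ccn2 encode matricellular proteins and are also known as YAP targets. Ccn2 had 105454, 119457 and 134173 normalized counts in stimulated replicates 1 to 3 and 9533, 13142 and 11974 in controls and rose by 3.38 ± 0.14 (limma adjusted p = 0.000133), and exons on the opposite strand cover 23.2% of it. Itga5, the fibronectin receptor subunit, was at 59682 ± 3737 in stimulated and 13236 ± 2122 in control samples and rose by 2.18 ± 0.12, and Ccn1, a relative of Ccn2, rose by 3.09 ± 0.23 (limma adjusted p = 0.000292 and 8e-04). The groups lay apart without overlap for all 3 genes. The lowest value on the list was that of Ablim1 (-0.79 ± 0.44, limma adjusted p = 0.292), an actin-binding LIM protein gene chosen after its value was seen, which fell with the replicate block (adjusted p = 0.00299), where 30 members rose (14.9% of all genes did). Without stimulated replicate 3, control replicate 1 or control replicate 3 the count of rises was 11, 13 and 15. With genes of a mean under 10 left out it was 24, against 2069 of 16695 genes. A promoter window was available for 35 of the 42 genes, and 7 of the 35 held a CArG box in it, against 1.81% of all genes with a window. These were Acta1, Actg1, Cnn2, Filip1l, Myl9 and Vcl (25.5% covered by opposite-strand exons), which rose, and Actc1 (0.41, limma adjusted p = 0.785).

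Of 14 immediate early genes known as targets of SRF with ternary complex factors, 6 rose, none fell and 8 did not pass by limma. Over all genes 8.61% rose and 4.75% fell. The list median was 0.77. At an unadjusted limma p under 0.05 there were 8 higher and none lower, against 15.5% and 13.2% of all genes. Egr2, a zinc finger factor, was at 1714, 2036 and 2324 normalized counts in stimulated replicates 1 to 3 and 280, 441 and 286 in controls (2.61 ± 0.20, limma adjusted p = 0.000896). The AP-1 genes Junb and Fosb rose by 1.46 ± 0.16 and 1.74 ± 0.21. For each of these 3 genes all stimulated libraries lay above all controls, and the list median was close to that of the MRTF-type targets.

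**Figure D5:**
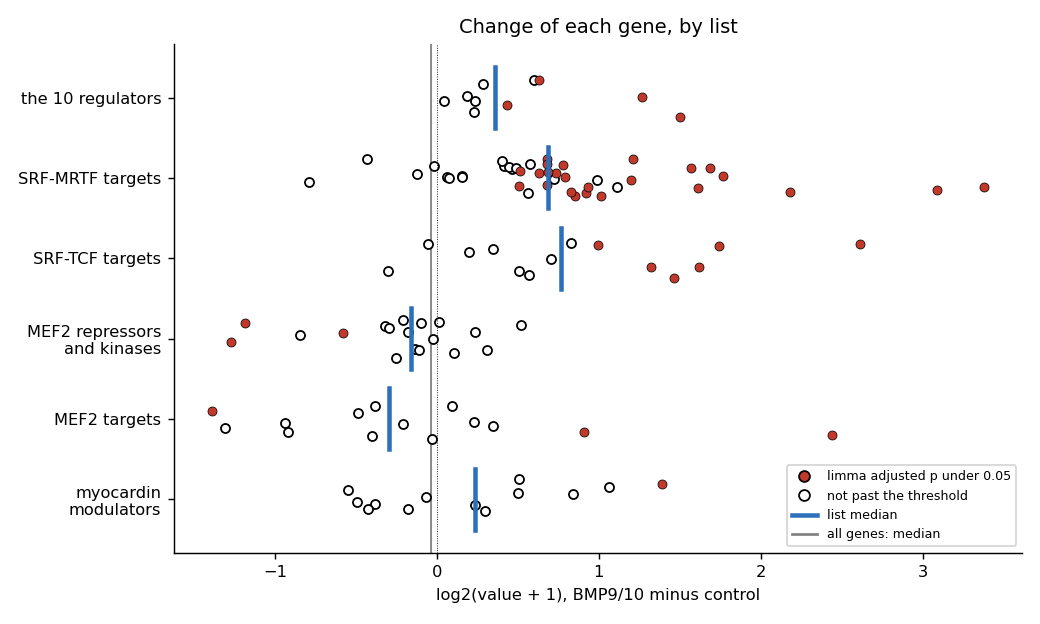
Log2(value + 1) change, BMP9/10 minus control, of each gene by list; red points passed limma at an adjusted p under 0.05, blue bars are list medians, and the grey line is the median of all genes tested. The list medians are 0.69 for the SRF-MRTF and 0.77 for the SRF-TCF (ternary complex factor) targets and -0.16 and -0.29 for the MEF2 lists.

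Genes for enzymes and cofactors that act on MEF2 had no rise, 3 falls and 15 that did not pass among 18. Over all genes 8.61% rose and 4.75% fell. The list median was -0.16. At an unadjusted limma p under 0.05 there were 2 higher and 4 lower, against 15.5% and 13.2% of all genes. Prkd2, a protein kinase D that drives class IIa deacetylases out of the nucleus, had 411, 454 and 366 normalized counts in stimulated replicates 1 to 3 and 864, 1039 and 897 in controls, and fell by 1.19 ± 0.13 on the log2 scale (limma adjusted p = 0.00237). Camk2a, a calcium-dependent kinase gene, fell by 1.27 ± 0.21 (limma adjusted p = 0.0101; 0.0509 without stimulated replicate 3 and 0.0514 without control replicate 1). Hdac5, a class IIa deacetylase gene, had 1861, 2662 and 1989 normalized counts in stimulated replicates 1 to 3 and 3001, 3311 and 3310 in controls, without overlap. It fell by 0.58 ± 0.14 (limma adjusted p = 0.0391), a call lost when any library other than stimulated replicate 2 was left out (0.0922 to 0.149). With the replicate block 2 of the 18 rose and 6 fell (14.9% and 12.0% of all genes). With equal library totals 5 fell, as did 2265 of all 21723 genes. With both together 11 fell and 1 rose, against 4916 and 2042 of 21723 genes. Without stimulated replicate 3 or control replicate 1 there was 1 fall, against 257 and 323 of 21743 genes.

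Of 14 genes known as MEF2 targets, 2 rose, 1 fell and 11 did not pass, against 8.61% rises and 4.75% falls over all genes. The median was -0.29. The list also holds genes near the floor, with group means of 1 to 10.3, which count in this median. Klf6, a zinc finger factor, rose to 9844 ± 1020 in stimulated samples, against 5235 ± 420 in controls (0.91 ± 0.10, limma adjusted p = 0.00325). Xirp1, an actin-binding muscle protein gene, had 132, 126 and 118 normalized counts in stimulated replicates 1 to 3 and 34, 9 and 35 in controls (2.44 ± 0.50, limma adjusted p = 0.0219), and was not called without any 1 of the stimulated replicates (0.0622, 0.063 and 0.0926). Thbd, the anticoagulant thrombomodulin of endothelium, fell by 1.39 ± 0.18 (limma adjusted p = 0.00502), while the 12 endothelial markers had no rise and no fall by limma (none at an unadjusted p under 0.05 either) and a median of -0.29. With the replicate block 1 endothelial marker rose and 4 fell (14.9% and 12.0% of all genes). Thbd had 3367, 2419 and 3031 normalized counts in stimulated replicates 1 to 3 and 8031, 6030 and 9129 in controls. Replicate 2 was thus its lowest library in both groups, whereas replicate 2 was the highest for all 12 endothelial markers. The part of endothelial cells in the Thbd value was not tested.

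Of 13 modulators of myocardin, 1 rose, none fell and 12 did not pass by limma, against 8.61% rises and 4.75% falls over all genes. Their median was 0.23. At an unadjusted limma p under 0.05 there were 4 higher and 2 lower, against 15.5% and 13.2% of all genes. With the replicate block 5 rose and 2 fell (14.9% and 12.0% of all genes). With the block and equal library totals together 4 rose and 5 fell, against 2042 and 4916 of 21723 genes. Without stimulated replicate 1 there were 4 rises, against 1541 of 21743 genes. The rise was that of Hey2, a Notch effector that represses myocardin-driven transcription, with 56, 124 and 119 normalized counts in stimulated replicates 1 to 3 and 29, 44 and 34 in controls (1.39 ± 0.36, limma adjusted p = 0.0448). It did not pass with equal library totals (0.0583), without both replicate 2 libraries (0.132) and without any single library other than stimulated replicate 1 (0.0649 to 0.172).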

How the data were processed

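Stranded libraries of the whole transcriptome were prepared from DNase-treated total RNA of 3 stimulated and 3 control PASMC samples, per the labels' protocols. DESeq2 1.18.1, featureCounts 1.6.3, STAR 2.6.1d, Trimmomatic 0.38 and FastQC are named as tools, and hg38, GRCh38 and mm10 as builds, per the submitters' processing notes; neither the strand setting nor the annotation release is stated in what was used here. Values deposited by the authors have the unit score: from their steps they are read counts scaled by 1 factor for each library, then rounded. The estimated factors were 1.32, 1.14 and 0.584 for stimulated and 1.07, 0.99 and 1.03 for control replicates 1 to 3. Counts merge where a factor is under 1, so no count model was run.

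Differences were tested with limma 3.58.1 in R 4.3.3 on log2(value + 1), which understates changes of low genes, with an intensity trend, for 21743 genes with a mean of 1 or more. Treatment was the only term (4 residual degrees of freedom), and the threshold was 0.05 after Benjamini-Hochberg adjustment. Tested on simulated data for this comparison (21470 genes run), the fit called 38% of 100 genes changed by 1 and 100% of 100 changed by 2 on the log2 scale, with 6 false calls. The simulation gave every gene the same dispersion and no shift along the replicate number. It changed only genes with a control mean of 50 or more, so these rates need not hold for the real libraries. GENCODE M21 (mm10), which 21747 of 21785 identifiers matched, gave positions and exonic lengths. Both groups carry replicate numbers 1 to 3. Same-numbered libraries deviated together from their group means (correlations of 0.747, 0.741 and 0.218 across 13185 genes of mean 50 or more), which was taken as pairing. Replicates 1 and 2 deviated oppositely across groups (-0.714 and -0.725), and deviations from a mean of 3 libraries are not independent of each other. The labels give no meaning to the numbers, and control replicate 3 was closer to stimulated replicate 1 (0.287) than to its own partner. The alternatives, 17 in all, were other pseudocounts, filters and scalings, no intensity trend, the replicate block, and leaving out libraries.

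The members, lists, ratios and tests were chosen with earlier results of these data known. A further list is not reported here. Genes named are the 10 members, their family relatives, up to 3 genes past the threshold with the smallest p in each list (1 if none passed) and the 5 genes most like Srf. Of the marker lists, fibroblast and cardiomyocyte markers had 1 fall each and no rise, pericyte markers 2 rises of 7 and no fall, and macrophage and epithelial or mesothelial markers neither. Over all genes 8.61% rose and 4.75% fell. Poisson intervals cover counting error only.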

Additional observations from a re-analysis of the deposited data

How the results depend on the processing

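Of the members, Fhl2 kept its direction and its call under all 17 alternatives, Srf under 16 and Mrtfa under 13, and Mef2a was called under 6. Mef2c changed sign with equal library totals (-0.13, with and without the replicate block), with upper-quartile scaling (-0.037) and without stimulated replicate 2, stimulated replicate 3 or control replicate 1 (-0.076 to 0.185 over the 6 libraries left out), and Fhl1 without stimulated replicate 2 or control replicate 1 (-0.146 to 0.487). Fhl3 changed sign with equal library totals (-0.04, with and without the block) and Fhl4 without stimulated replicate 2 or control replicate 3 (-0.592 to 0.036). The number of members that rose, 4, was 2 without the intensity trend, where Fhl2 and Srf passed, and 1 to 4 when 1 library was left out; Fhl2 alone passed without stimulated replicate 3, and Fhl2 and Srf without control replicate 1 or 3. Leaving out a library also lowers the residual degrees of freedom.

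Of the SRF-MRTF target genes, 11 to 25 rose when 1 library was left out, and 1 fell with the replicate block and 3 with the block and equal library totals. Over all genes, 1873 rose and 1032 fell. These counts were 1135 and 2265 with equal library totals, 983 and 627 without the intensity trend, 3232 and 2605 with the replicate block, 2042 and 4916 with the block and equal totals, and 659 to 1568 and 257 to 773 when 1 library was left out. The replicate block changed no member's call other than that of Mef2d. Causes were not tested. Counting error is widest, relative to the level, for the lowest genes, such as Fhl5 and Myocd.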
